A study of Bos taurus with 96 samples.

Results

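The 16 semitendinosus muscle libraries taken in late pregnancy (LP) compared 8 Holstein cows of good genetic merit for fertility (Fert+) with 8 of poor merit (Fert-). They were selected from the 96 libraries of the series by their labels alone, as muscle sampled at LP, and all genes were examined. Another 80 libraries, from liver or from early (EL) and mid-lactation (ML), were set aside except where the 32 muscle libraries of EL and ML are named below. Both genotypes were dairy cows of first and second parity, kept as 1 herd. They had been chosen for opposite extremes of breeding value for calving interval within a set range of breeding value for milk production, so genotype stands for many loci and not for a single allele. No treatment was compared, and the muscle core was taken by punch through an incision under local lidocaine. Each library came from a different cow, and all were read as poly(A) RNA.

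Muscle of the pregnant cow takes up glucose, burns fatty acids and holds a protein store that can be drawn on when lactation starts. Growth hormone and insulin set the balance between sparing glucose for the fetus and using it. PDK4 is a kinase that inhibits pyruvate dehydrogenase and so the conversion of pyruvate to acetyl-CoA. A biopsy also holds capillaries, connective tissue and nerve endings, and immediate-early genes such as FOS and JUNB are switched on within minutes of a stimulus. In bulk tissue, fewer cells of a type and less RNA per cell cannot be told apart.

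Libraries held between 15279337 and 21422737 read pairs assigned to genes (median 17778037). Skeletal muscle genes were abundant in every library, and 0 of the 13 tested genes of the skeletal muscle identity list had an unadjusted p under 0.05 (median log2 fold change 0.06). This count was 0 to 2 with 1 cow left out, and 2 without Fert- cow 426. Transcripts secreted by liver summed to between 1.87 and 9.26 counts per 1000000 (CPM), and haemoglobin transcripts to at most 5.53 CPM. The library of Fert- cow 419 stood apart. It held counts for 14 of 19 genes that 15 of the 16 libraries hardly counted (at most 3 of 19), as did 12 other libraries of the series, and the myosin genes in which it was highest are given with and without it. No pair of libraries within a genotype held the same counts.

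Gene symbols were known for 1546 of the 11954 genes tested. For 182 of these the symbol came from the study's own list for muscle at LP, which was chosen on these very libraries, so a count over such genes is not independent evidence of their direction. Among these 182 genes 129 had an unadjusted p under 0.05 (70.9%), 86 higher in Fert+ (47.3%) and 43 lower (23.6%). Among the other 1364 genes with a symbol there were 55 (4.03%), 29 higher (2.13%) and 26 lower (1.91%), and among all 1546 there were 184 (11.9%), 115 higher (7.44%) and 69 lower (4.46%). Counts over lists are therefore also given for members whose symbol came from elsewhere. These sources were tables of abundant genes and lists of other time-points and of liver. Those lists were chosen by genotype on other libraries of the same cows.

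**Figure D1:**
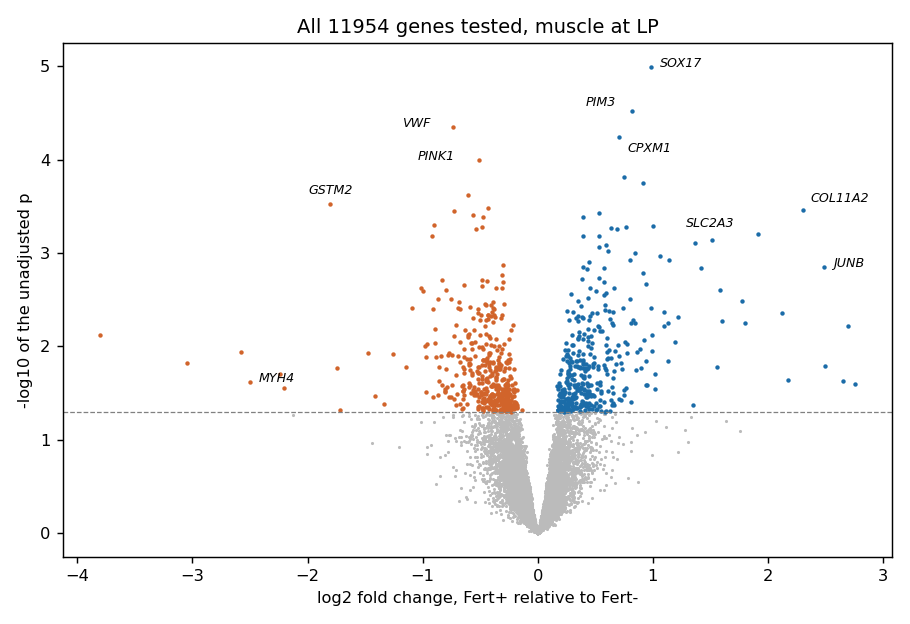
Each point is 1 of the 11954 genes tested, with the log2 fold change of Fert+ relative to Fert- on the x axis and -log10 of the unadjusted p of edgeR's quasi-likelihood test on the y axis. The 375 blue points are higher and the 425 orange points lower in Fert+ at an unadjusted p under 0.05 (dashed line), and none had an adjusted p under 0.05.

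No gene differed between Fert+ and Fert- muscle at LP once p was adjusted over all genes. Of 11954 genes, 0 had an adjusted p under 0.05 by edgeR's quasi-likelihood test (0.0% called), and the smallest adjusted p was 0.121, for SOX17. At an unadjusted p under 0.05 there were 800 genes (6.69% of those tested), 375 higher in Fert+ (3.14%) and 425 lower (3.56%). Limma-voom also called 0 genes, with 801 at an unadjusted p under 0.05. With 1 cow left out the quasi-likelihood test called 0 genes in 14 of 16 fits, 3 without Fert+ cow 3397 and 4 without Fert- cow 982. DESeq2 called 27 (0.226%), 16 higher and 11 lower, and the exact test with one dispersion shared by all genes called 214 (1.79%), 116 higher and 98 lower. Of those 214 genes, 204 had a gene-wise dispersion estimate above 0.0497, the common estimate made for the quasi-likelihood fit. The median gene-wise estimate over all genes tested was 0.0371, and the part of dispersion in these calls was not tested. The exact permutation test over the 12870 arrangements of the cows, two-sided on mean log2(CPM + 1), gave 818 genes a p under 0.05 and none an adjusted p under 0.05 (smallest 0.387). The LP differences below are therefore ones that did not pass the adjusted threshold of the quasi-likelihood test. Many genes described below were picked for a small p here, from the study's LP list or after their values were seen. Among 89 of the tested genes described below, the shared-dispersion test called 69 and DESeq2 called 19, counts that follow largely from that choice. Those 19 were SOX17 (DESeq2 adjusted p = 0.000255), PIM3, VWF, PINK1, GSTM2, CPXM1, COL11A2, GRASP, C17orf70, SFRS5, SLC2A3, BANP, JUNB, ETS2, CCDC112, APOLD1, CHRNE, DDX5 and ZSCAN20. In the counts over lists, p is the unadjusted quasi-likelihood p.

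SOX17 and VWF, both genes of the blood vessel lining, were among the 3 genes with the smallest p. SOX17, a transcription factor of arterial endothelium, ran from 2.73 to 4.35 CPM in Fert+ (median 3.39) and from 1.11 to 2.41 CPM in Fert- (median 1.87). The 2 genotypes did not overlap, the log2 fold change was 0.99 (SE 0.17, adjusted p = 0.121), and the exact permutation p was 0.000155, the smallest that 12870 arrangements can give. Complete separation of the genotypes was seen for 4 of the 11954 genes (0.0335%). VWF, the von Willebrand factor that endothelium releases in clotting, went the other way, with 29.2 to 60.6 CPM in Fert+ (median 48.4) and 52.4 to 98.04 CPM in Fert- (median 82.1). All 8 Fert+ cows lay below the Fert- median for VWF, and the log2 fold change was -0.74 (SE 0.14, adjusted p = 0.172).

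**Figure D2:**
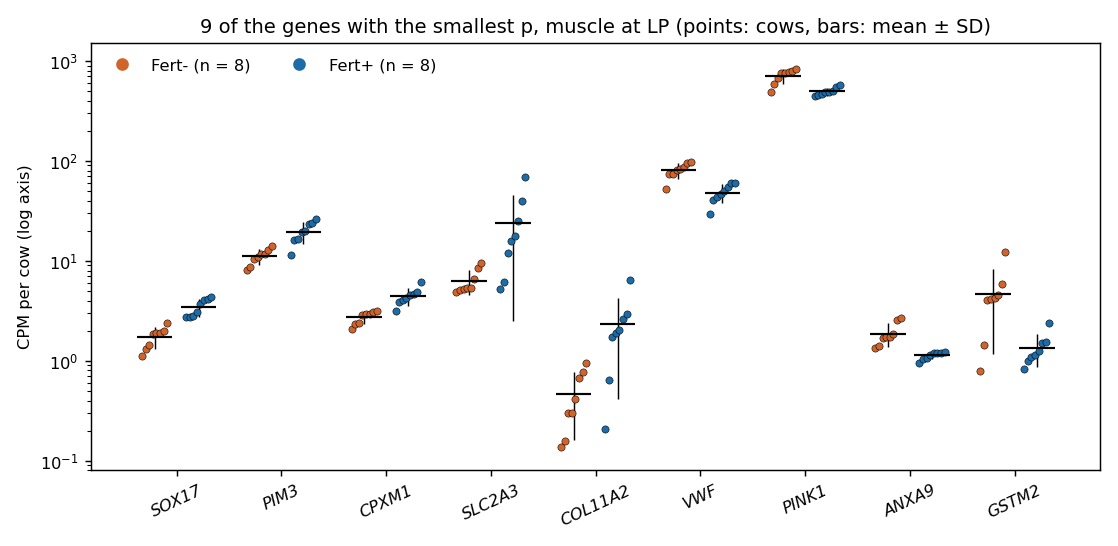
CPM of 9 of the genes with the smallest p (log axis), with 1 point per cow, a bar for the mean and a line for the SD (n = 8 cows per genotype). SOX17 and ANXA9 are the genes shown here whose genotypes do not overlap, and the highest Fert+ value of SLC2A3 is 69.0 CPM against 9.41 CPM in Fert-.

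PIM3, a serine/threonine kinase that promotes cell survival, measured 19.6 ± 4.90 CPM in Fert+ and 11.1 ± 1.99 CPM in Fert- (SD, n = 8 each). In 7 of 8 Fert+ cows PIM3 was above every Fert- cow, with cow 3397 at 11.4 CPM as the exception, and the log2 fold change was 0.82 (SE 0.15, adjusted p = 0.172). CPXM1, a secreted member of the carboxypeptidase family, was at 4.43 ± 0.858 CPM against 2.72 ± 0.401 CPM, with 7 of 8 Fert+ cows above all Fert- cows (log2 fold change 0.70, SE 0.14). SLC2A3, the glucose transporter GLUT3, ran from 5.27 to 69.0 CPM in Fert+ (median 16.9) and from 4.90 to 9.41 CPM in Fert- (median 5.34). Cow 3445 held the highest SLC2A3 value, cows 756 and 3397 lay within the Fert- range, and the log2 fold change was 1.92 (SE 0.45, adjusted p = 0.293) or 1.46 at the lowest when 1 cow was left out. COL11A2, a fibrillar collagen chain of cartilage, had the largest fold change of the 24 genes with a symbol and the smallest p, 12 in each direction, at 2.32 ± 1.91 CPM against 0.464 ± 0.302 CPM (log2 fold change 2.30, SE 0.52). Its counts were low, 2 of 8 Fert+ cows lay within the Fert- range, and cow 430 alone reached 6.45 CPM.

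Other genes higher in Fert+ among those 12 were the splicing factor SFRS5, the RNA helicase DDX5, the transcription factor ETS2, the scaffold protein GRASP, C17orf70 and CCDC112, with log2 fold changes between 0.64 and 1.002. ETS2 measured 121 ± 24.5 CPM in Fert+ and 74.9 ± 20.4 CPM in Fert-, and all 8 Fert+ cows were above the Fert- median. SFRS5 ran from 24.7 to 92.5 CPM in Fert+ and from 18.7 to 35.4 CPM in Fert-, and 6 of 8 Fert+ cows were above every Fert- cow. DDX5 was highest in cow 3847 at 195 CPM, and its log2 fold change moved from 0.64 to 0.47 at the lowest when 1 cow was left out.

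Among the genes lower in Fert+, PINK1 is the kinase that marks damaged mitochondria for removal, and its symbol came from a table of abundant genes and not from the LP list. PINK1 ran from 447 to 578 CPM in Fert+ (median 486) and from 484 to 826 CPM in Fert- (median 752). Every Fert+ cow lay below the Fert- median, 3 lay below all Fert- cows, and the log2 fold change was -0.51 (SE 0.10, adjusted p = 0.24). ANXA9, a member of the annexin family, had a narrow range in Fert+ from 0.951 to 1.22 CPM and ran from 1.33 to 2.70 CPM in Fert-, without overlap (log2 fold change -0.73, SE 0.17). The zinc finger genes ZSCAN20, ZBTB40 and ZNF699, the nuclear protein BANP, the kinase TNIK, the Wnt agonist RSPO3 and the tight junction protein CGN were also among the 12, with log2 fold changes between -0.64 and -1.01. In each of these 7 genes all 8 Fert+ cows lay below the Fert- median. The remaining 2 genes without overlap carry no symbol here, ENSBTAG00000002476 (16.3 ± 1.43 against 19.99 ± 2.03 CPM) and ENSBTAG00000015946 (29.4 ± 2.57 against 34.1 ± 0.718 CPM), and both were lower in Fert+.

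Markers of endothelium were higher and lower side by side. All 8 tested members of the endothelial list took their symbol from the LP list. At p under 0.05, 5 of them were higher and 3 lower in Fert+. The LP list was chosen on these libraries, so that all 8 passed follows largely from the choice. The endothelial list named 22 genes, and those without a symbol could not be looked up. The median log2 fold change was 0.58, against 0.00 over all genes tested, which were not chosen in this way. Beside SOX17, the higher members were APOLD1, an early response gene of endothelium, the Notch ligand DLL4, the tight junction protein CLDN5 and ANGPT2, an angiopoietin that loosens vessels. APOLD1 ran from 12.2 to 95.6 CPM in Fert+ (median 46.7) and from 8.85 to 22.4 CPM in Fert- (median 15.8), with 6 of 8 Fert+ cows above all Fert- cows (log2 fold change 1.52, SE 0.37). CLDN5 was at 29.9 ± 7.01 CPM against 19.98 ± 4.41 CPM, with 7 of 8 Fert+ cows above every Fert- cow and cow 756 low at 16.2 CPM. DLL4 was at 9.23 ± 2.31 CPM against 6.19 ± 1.24 CPM, and ANGPT2 at 6.51 ± 3.56 CPM against 2.78 ± 1.67 CPM. The lower members were VWF, the angiopoietin receptor TEK (22.7 ± 10.4 against 34.1 ± 5.998 CPM) and the water channel AQP1 (26.4 ± 12.4 against 39.6 ± 10.4 CPM). Fert+ cows 756, 3397 and 3847 were within the Fert- range for TEK. The summed level of the 8 markers overlapped, at 138 to 239 CPM in Fert+ and 165 to 229.5 CPM in Fert-, and the part of vessel content in these differences was not tested.

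Immediate-early genes gave the highest median of the lists. Of 19 tested, 18 had a positive log2 fold change, 8 were higher in Fert+ at p under 0.05 and 0 were lower, and the median was 0.93. Their symbols came from the LP list for 15 of them, and 7 of these 15 were higher at p under 0.05. Over all 182 genes with a symbol from that list 86 were higher (47.3%), so the count was near that share. The 4 immediate-early genes with a symbol from elsewhere had a median of 0.33 with 1 higher at p under 0.05. It was MAFF (54.3 ± 17.6 against 40.2 ± 11.4 CPM, log2 fold change 0.44).

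FOS, a subunit of the AP-1 transcription factor, ran from 3.53 to 321 CPM in Fert+ (median 76.9) and from 1.53 to 107 CPM in Fert- (median 10.2). Fert+ cows 3397 and 756 lay low at 3.53 and 11.3 CPM, Fert- cow 982 lay high at 107 CPM, and the log2 fold change was 2.49 (SE 0.92, adjusted p = 0.638). JUNB, its dimer partner, ran from 7.16 to 165 CPM in Fert+ (median 83.4) and from 3.27 to 49.1 CPM in Fert- (median 9.69). For JUNB 6 of 8 Fert+ cows were above every Fert- cow (log2 fold change 2.49, SE 0.64, adjusted p = 0.408). EGR1, a zinc finger factor, had all 8 Fert+ cows above the Fert- median (4.41 to 87.6 against 2.06 to 12.4 CPM), and its log2 fold change of 2.12 was 1.26 at the lowest when 1 cow was left out. GADD45B, a stress-induced growth arrest gene, was at 17.8 ± 17.1 CPM against 5.21 ± 2.55 CPM (log2 fold change 1.78, SE 0.51). NR4A1, an orphan nuclear receptor induced by exercise, was at 281 ± 114 CPM against 167 ± 103 CPM, with Fert- cow 982 at 413 CPM beside Fert+ cow 3445 at 435 CPM.

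**Figure D3:**
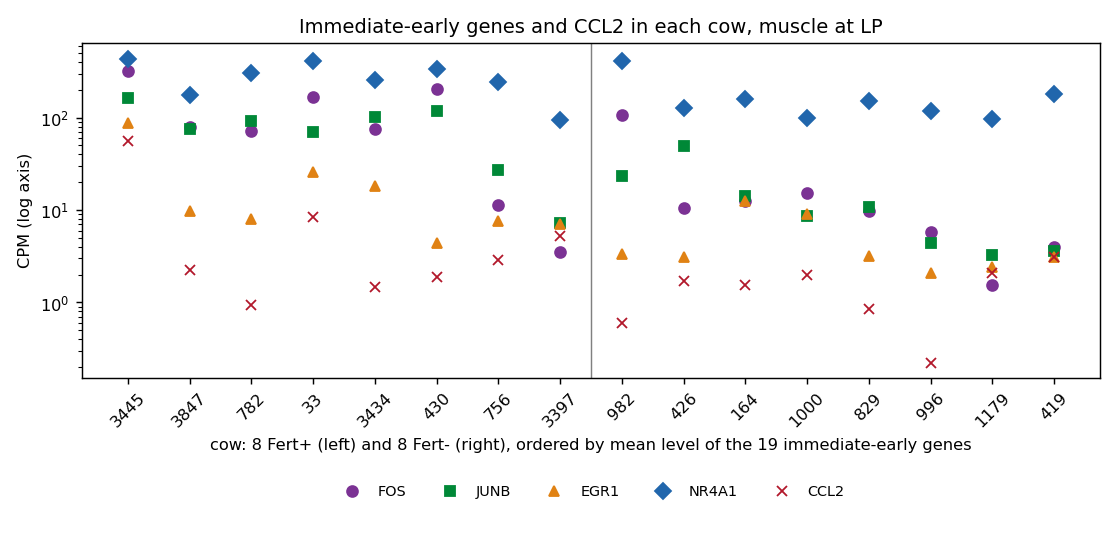
CPM (log axis) of FOS, JUNB, EGR1, NR4A1 and CCL2 in each of the 16 cows, ordered within each genotype by the mean level of the 19 immediate-early genes. Cow 3445 is highest in FOS, JUNB, EGR1, NR4A1 and CCL2, Fert+ cow 3397 lies within the Fert- range for FOS, JUNB and EGR1, and Fert- cow 982 is the highest of its genotype for FOS and NR4A1.

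These genes moved together from cow to cow. In a principal component analysis of the 500 most variable genes, the first component held 21.3% of the variance, all 16 immediate-early genes among the 500 loaded on it with the same sign, and 12 of them were among its 50 strongest loadings. Fert+ cows scored between -6.12 and 15.4 (median 5.10) and Fert- cows between -9.57 and 5.83 (median -6.29). Cow 3397 of the Fert+ group and cow 982 of the Fert- group lay with the other genotype on this component. Without cow 982 the number of immediate-early genes higher at p under 0.05 was 14 of 19 (median 1.29), without cow 3397 it was 14 (median 1.06), and without cow 3445 it was 6 (median 0.73).

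Cow 3445 held the highest values of several cytokine and heat shock genes. Of 8 cytokine and chemokine genes tested, 4 were higher in Fert+ at p under 0.05 and 0 lower (median 0.75), and all 4 had their symbol from the LP list. Without cow 3445 it was 3 (median 0.53). CCL2, which attracts monocytes, was at 56.5 CPM in cow 3445 and at most 8.48 CPM in the other Fert+ cows, against 0.223 to 3.08 CPM in Fert-. The log2 fold change of CCL2 was 2.70 (SE 0.85) and was 1.11 at the lowest when 1 cow was left out. CXCL3, a neutrophil chemokine, was at 34.0 CPM in cow 3445 and at most 2.93 CPM in the other cows of its genotype, and its exact permutation p was 0.351. SOCS3, a brake on cytokine receptors, was at 13.3 CPM in the same cow and at most 1.94 CPM in the other Fert+ cows, and its log2 fold change of 1.7995 was 0.69 at the lowest when 1 cow was left out. HSPA6, an inducible chaperone, showed 31.1 CPM in cow 3445 and at most 1.73 CPM in any other cow, and its exact permutation p was 0.311. The heat shock list had 2 of 8 members higher at p under 0.05 (median 0.15), HSPA6 and the small chaperone HSPB1 (366 ± 147 against 269 ± 70.2 CPM), or 1 in 11 of the 16 fits that left out 1 cow, the fit without cow 419 included, while the constitutive chaperone HSPA8 was at 921 ± 322 CPM against 809 ± 144 CPM (adjusted p = 0.871).

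**Figure D4:**
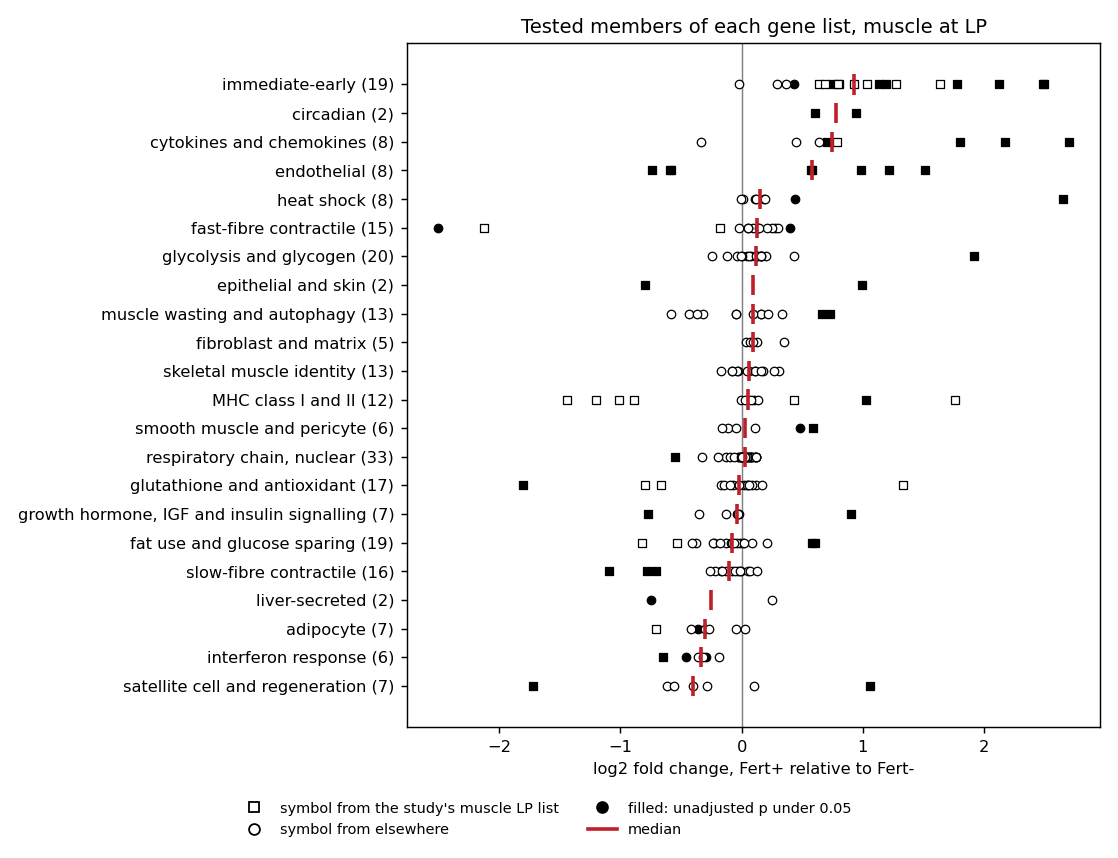
Log2 fold change of Fert+ relative to Fert- for every tested member of each gene list with 2 or more (number in parentheses), with red marks for list medians. Squares are genes whose symbol came from the study's LP list, circles are other genes, and filled marks have an unadjusted p under 0.05. Most filled marks are squares, and the lists of 5 or more genes with the highest medians are immediate-early genes (0.93) and cytokines and chemokines (0.75).

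Both tested clock genes were higher in Fert+, and both symbols came from the LP list, which was chosen on these libraries. The clock list named 20 genes and only these 2 had a symbol, so the pair does not describe clock genes as a set. NR1D1, the repressor REV-ERB alpha, ran from 20.5 to 55.2 CPM in Fert+ (median 41.4) and from 11.3 to 39.2 CPM in Fert- (median 20.4). All 8 Fert+ cows were above the Fert- median (log2 fold change 0.94, SE 0.26, adjusted p = 0.476). PER1, a period gene, was at 140 ± 44.9 CPM against 92.2 ± 32.8 CPM (log2 fold change 0.61, SE 0.24).

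Genes of fuel use pointed in both directions. Of 19 tested genes for fat use and glucose sparing, 2 were higher and 1 lower in Fert+ at p under 0.05 (median -0.08), and over the 15 with a symbol from elsewhere 0 were higher and 1 lower. The count of lower genes turned on single cows, with 0 in 7 of the 16 fits that left out 1 cow, 2 without Fert- cow 982, 3 without Fert+ cow 3847 and 4 without Fert- cow 419. The count of higher genes was 2 or 3. PDK4 ran from 159 to 1873 CPM in Fert+ (median 846) and from 647 to 3376 CPM in Fert- (median 1794). Cow 430 held the lowest PDK4 value, 7 of 8 Fert+ cows were below the Fert- median, and the log2 fold change of -0.82 had an unadjusted p above 0.05 (SE 0.40, adjusted p = 0.744). ECHDC2, an enoyl-CoA hydratase domain protein, was at 24.5 ± 7.22 CPM against 16.3 ± 4.73 CPM, with every Fert+ cow above the Fert- median (log2 fold change 0.58, SE 0.18). FADS3, a fatty acid desaturase family member, was at 7.48 ± 2.82 CPM against 4.90 ± 1.52 CPM (log2 fold change 0.61, SE 0.22). ACSL1, which activates long-chain fatty acids, was at 302 ± 40.4 CPM against 353 ± 44.1 CPM (log2 fold change -0.22, SE 0.10, adjusted p = 0.711), and lipoprotein lipase LPL was at 116 ± 43.6 CPM against 168 ± 84.9 CPM (adjusted p = 0.774).

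Glycolysis and glycogen genes had a median of 0.12 over 20 genes, and 0 of the 19 with a symbol from elsewhere had a p under 0.05. The 1 member that did was SLC2A3, and 3 members did without Fert+ cow 3847. Of 33 tested nuclear genes of the respiratory chain, 0 were higher and 1 lower at p under 0.05 (median 0.03), and 0 of the 32 with a symbol from elsewhere. The 1 was COX7C (ENSBTAG00000039555), a cytochrome c oxidase subunit, at 38.8 ± 12.8 CPM against 56.8 ± 23.3 CPM (log2 fold change -0.55, SE 0.24). This entry was under p 0.05 in 8 of the 16 fits that left out 1 cow. Another tested entry with the symbol COX7C, ENSBTAG00000040564, had a log2 fold change of -0.06 (SE 0.14) and an unadjusted p above 0.05. SLC25A25, a calcium-regulated ATP carrier of the mitochondrion, was at 158 ± 55.2 CPM against 100 ± 41.1 CPM (log2 fold change 0.65, SE 0.29), and TIEG1, a TGF-beta inducible transcription factor, at 428 ± 130 CPM against 244 ± 103 CPM (log2 fold change 0.81, SE 0.26). Cow 3397 was the lowest Fert+ cow for both genes.

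In growth hormone, IGF and insulin signalling, 7 genes were tested, with 1 higher and 1 lower at p under 0.05 (median -0.04), and 0 lower in 6 of the 16 fits that left out 1 cow. SOCS2, the growth hormone-induced inhibitor of its own receptor, ran from 3.76 to 7.25 CPM in Fert+ (median 5.01) and from 2.76 to 18.9 CPM in Fert- (median 8.41). The Fert- cows spanned the whole Fert+ range, all 8 Fert+ cows were below the Fert- median, and the log2 fold change was -0.77 (SE 0.34, adjusted p = 0.711). The exact permutation p of SOCS2 was 0.18. PIK3IP1, an inhibitor of phosphoinositide kinase signalling, was at 12.2 ± 6.22 CPM against 6.57 ± 3.69 CPM (log2 fold change 0.90, SE 0.34). Of 13 genes of muscle wasting and autophagy, 2 were higher and 0 lower at p under 0.05 (median 0.09), the kinase SGK1 (37.4 ± 16.1 against 23.6 ± 7.72 CPM) and the forkhead factor FOXO6 (4.88 ± 1.78 against 2.94 ± 1.32 CPM). Without Fert+ cow 3847, 2 genes of this list were lower. The ubiquitin ligase FBXO32, which tags muscle protein for breakdown, was at 199 CPM against 158 CPM (adjusted p = 0.837).

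Contractile genes had list medians near 0. Of 16 slow-fibre genes 0 were higher and 3 lower at p under 0.05 (median -0.11), and 0 of the 13 with a symbol from elsewhere were under it. With 1 cow left out 2 to 5 were lower (median -0.17 to -0.02), with 5 without Fert- cow 419. The 3 were MYH7B, the calcium buffer CASQ2 (10.05 ± 3.53 against 17.2 ± 7.97 CPM) and the second identifier of MYH7, ENSBTAG00000040053 (153 ± 34.7 against 326 ± 226 CPM). For that identifier Fert- cows 419 and 1179 stood at 717 and 634 CPM, and its log2 fold change was -1.09, or -0.82 without cow 419. The main identifier of this slow myosin, ENSBTAG00000009703, was at 17252 ± 3983 CPM against 18893 ± 4821 CPM (log2 fold change -0.13, SE 0.17). How read pairs were divided between 2 near-identical entries is uncertain. Of 15 fast-fibre genes 1 was higher and 1 lower (median 0.12). Between 1 and 4 were higher with 1 cow left out, with 4 without Fert+ cow 3847, 3 without Fert+ cow 3445 or Fert- cow 1000, and 2 in 4 further fits, and 2 were lower in 6 of the 16 fits. The higher one was TNNI2, the fast troponin I, which ran from 3598 to 9209 CPM in Fert+ and from 3119 to 4985 CPM in Fert- (log2 fold change 0.40, SE 0.16, adjusted p = 0.673). The lower one was MYH4, a fast myosin, at 576 CPM in cow 419 and at most 34.6 CPM in the other 15 cows, and its log2 fold change was -2.50 with cow 419 and 0.35 without it.

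Glutathione transferases of the antioxidant list lay in both directions. Of the 17 tested genes of this list 0 were higher and 1 lower at p under 0.05 (median -0.02), and 0 of the 13 with a symbol from elsewhere. GSTM2, which couples glutathione to reactive compounds, ran from 0.827 to 2.40 CPM in Fert+ (median 1.195) and from 0.784 to 12.4 CPM in Fert- (median 4.21). Of the Fert- cows, 982 and 1000 lay low at 0.784 and 1.45 CPM, and the log2 fold change was -1.803 (SE 0.40, adjusted p = 0.29) or -1.41 at the nearest to 0 when 1 cow was left out. GSTM3 was at 55.4 ± 38.4 CPM against 87.6 ± 27.1 CPM (adjusted p = 0.776), and GSTT1 at 4.65 ± 3.60 CPM against 8.07 ± 2.38 CPM (adjusted p = 0.79). For GSTT1 cows 33 and 3397 were near 0 (0.776 and 0.28 CPM) and cow 3847 was at 11.6 CPM. GSTA1 lay the other way, at 3.63 ± 3.05 CPM against 1.45 ± 0.803 CPM (log2 fold change 1.33, SE 0.65, adjusted p = 0.744). The other 4 transferases of the list, GSTP1, GSTO1, MGST1 and MGST3, had log2 fold changes between -0.17 and 0.17. With 1 cow left out, 1 gene of the list was higher in 5 of 16 fits, and 2 were lower without Fert+ cow 3847 or 430. Near-identical copies of these transferases can share reads.

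Genes of the major histocompatibility complex (MHC), which present peptides to T cells, differed in how they varied between cows. Of 12 tested, 1 was higher and 0 lower at p under 0.05 (median 0.05). With 1 cow left out the higher count was 0 without Fert+ cow 3397 and 2 without Fert+ cow 756 or Fert- cows 419 or 982, and the lower count was 0 to 2, with 2 without cow 756. B2M, the light chain of class I molecules, was at 561 ± 89.5 CPM against 551 ± 53.1 CPM, with no split into high and low cows. BOLA-DQA1 was high in 7 of 8 Fert+ cows (13.9 to 77.4 CPM) and in 3 of 8 Fert- cows (12.9 to 35.3 CPM), and at most 1.15 CPM in the other 6 cows (log2 fold change 1.76, SE 0.94, adjusted p = 0.776). BOLA-DQB, the gene under p 0.05, was at 28.6 ± 17.4 CPM against 14.1 ± 7.94 CPM. BOLA-DQA2 and BOLA-DQA5 had 0 counts in Fert+ cows 430, 3397 and 3445 and in Fert- cow 982. BOLA (ENSBTAG00000022590), another MHC gene, was at 69.9 and 71.01 CPM in Fert+ cows 430 and 3397 and at most 6.73 CPM in the other 6. In Fert- it ran from 6.92 to 124 CPM (log2 fold change -1.44, SE 0.84, adjusted p = 0.8). A second entry with the symbol BOLA, ENSBTAG00000002069, was at 96.9 ± 41.7 CPM against 97.5 ± 23.15 CPM (log2 fold change -0.009, SE 0.24). These genes are highly polymorphic and have near-identical copies that can share reads, and the part of either was not tested.

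All 6 tested interferon response genes had a negative log2 fold change (median -0.34). Of these, 3 were lower in Fert+ at p under 0.05, 2 of which had a symbol from elsewhere. All 6 symbols were in the study's list for liver at LP, which was chosen by genotype in the same cows. Their shared direction is therefore not independent evidence, and the list named 27 genes of which only these 6 had a symbol. MX1, an antiviral GTPase, was at 4.24 ± 1.36 CPM against 5.82 ± 1.65 CPM, HERC6, a HERC family ubiquitin ligase, at 3.26 ± 0.398 CPM against 3.99 ± 0.879 CPM, and IFI27 at 2.72 ± 0.895 CPM against 4.25 ± 2.30 CPM. Fert- cow 164 held the highest value of all 3, and leaving out 1 cow gave between 0 and 4 genes under p 0.05, with 0 without Fert- cow 164 or Fert+ cow 3445, 1 without cows 33, 430 or 1179, and 4 without cows 829 or 3847.

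Among markers of other cell types, 1 of 7 adipocyte genes was lower in Fert+ at p under 0.05 (median -0.30), the triglyceride-forming enzyme DGAT2 (31.4 ± 6.59 against 40.4 ± 9.15 CPM), and 0 were without cows 3434, 996 or 1179. The adipocyte markers ADIPOQ (6.41 ± 5.79 against 8.59 ± 7.25 CPM, adjusted p = 0.911) and FABP4 (2.04 ± 1.78 against 3.34 ± 2.87 CPM, adjusted p = 0.837) varied from cow to cow in both genotypes. Smooth muscle and pericyte markers had 2 of 6 higher and 0 lower (median 0.03), the contractile actin ACTA2 (77.8 ± 33.2 against 51.6 ± 17.2 CPM) and the filament nucleator LMOD1 (43.9 ± 14.6 against 31.4 ± 6.405 CPM), and 1 was higher without cow 33. Matrix genes had 0 of 5 at p under 0.05 (median 0.09). Of 5 leukocyte markers with a symbol only the chemokine receptor CXCR4 passed the filter on low counts (2.94 ± 1.503 against 1.63 ± 0.423 CPM, adjusted p = 0.51), and the neutrophil genes S100A8 and S100A9 were at most 0.53 CPM in any library. Of 2 tested epithelial markers 1 was higher, EPCAM (1.81 against 0.92 CPM), and 1 lower, DSG4 (2.01 against 3.52 CPM). Of 14 liver-secreted genes 2 passed the filter, and APOA1 was the lower of them at 0.761 CPM against 1.26 CPM. APOA1 had a p under 0.05 in 8 of the 16 fits that left out 1 cow, and not without cow 419. Of 7 satellite cell and regeneration genes 1 was higher and 1 lower (median -0.40), the acetylcholine receptor subunit CHRNE (18.4 ± 10.5 against 8.80 ± 2.48 CPM, all 8 Fert+ cows above the Fert- median) and the cardiac actin ACTC1 (9.63 ± 7.29 against 31.6 ± 42.3 CPM, exact permutation p = 0.272). The lower count of that list was 0 in 8 of the 16 fits that left out 1 cow and 2 without cows 419, 782 or 1000.

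**Figure D5:**
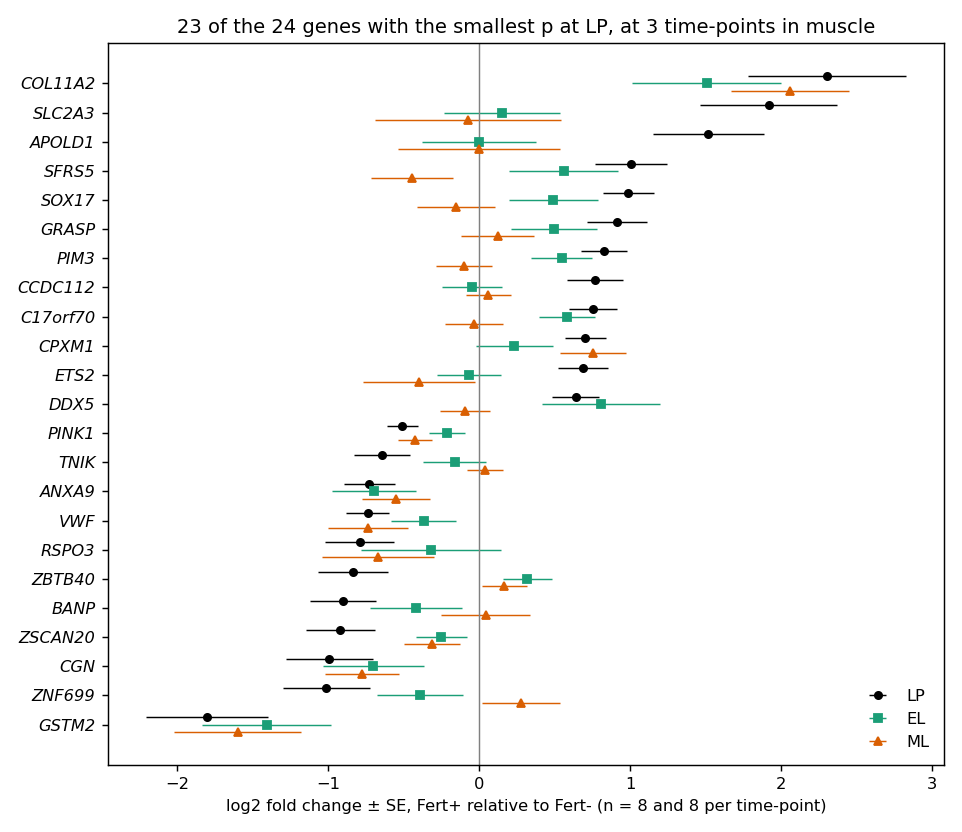
Log2 fold change ± SE of Fert+ relative to Fert- at LP, EL and ML for 23 of the 24 genes with the smallest p at LP, which were 12 higher and 12 lower. COL11A2 and GSTM2 keep fold changes of like size at all 3 time-points, whereas SLC2A3 (1.92 at LP) and APOLD1 (1.52 at LP) are near 0 at EL and ML.

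The same cows were biopsied again at EL and ML, which allowed the LP difference to be set beside those of other libraries of the same animals. Of the 12 genes higher in Fert+ at LP, 9 had the same sign at EL and 4 at ML, and the median log2 fold change went from 0.87 at LP to 0.49 at EL and -0.05 at ML. Of the 12 lower genes, 11 had the same sign at EL and 7 at ML, with a median of -0.81 at LP, -0.35 at EL and -0.37 at ML. The genes were picked for their values at LP, so larger values there follow from the choice. With the same sign and an unadjusted p under 0.05 there were 3 of the 12 higher genes at EL and 2 at ML. For the 12 lower genes these counts were 3 and 5. Among genes that kept their sign at both, GSTM2 had log2 fold changes of -1.803 at LP, -1.41 at EL and -1.60 at ML, and COL11A2 2.30, 1.51 and 2.05. In contrast, SLC2A3 and APOLD1 were near 0 at EL and ML. PINK1 stood at -0.51, -0.22 and -0.42, and CHRNE, which is not among these 24 genes, at 1.06, 1.51 and 1.12. The immediate-early list had a median of 0.93 at LP, 0.60 at EL and -0.01 at ML.

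A difference between the LP and the EL effect passed the adjusted threshold for 1 of 12675 genes (0.00789%), while 1143 (9.02%) had an unadjusted p under 0.05. With each cow as a block 2 genes passed. The gene in both fits was RNF144B, a ubiquitin ligase, at 126 ± 31.3 CPM against 155 ± 44.6 CPM at LP. Its log2 fold change was -0.29 at LP (SE 0.17) and 1.06 at EL (SE 0.22), and the difference was -1.36 (SE 0.26, adjusted p = 0.0356). The second gene under the block was ZBTB40 (-0.83 at LP and 0.32 at EL, difference -1.19, SE 0.21, adjusted p = 0.0378 with the block). The next smallest p values were those of CYR61, a matrix signalling protein of the immediate-early list (1.14 at LP and -1.46 at EL, difference 2.59, SE 0.55, adjusted p = 0.125), and CMSS1 (-0.05 at LP and -1.31 at EL). Between LP and ML, 0 of 12675 genes passed by the quasi-likelihood test, with 350 (2.76%) at an unadjusted p under 0.05, and with each cow as a block also 0, with 492 at an unadjusted p under 0.05. Such counts do not show that the effects were alike at the time-points.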

How the data were processed

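RNA of 16 muscle biopsies at LP was read as paired ends after TruSeq v2 preparation. After Trimmomatic, the authors mapped reads to UMD_3.1 with STAR, retained proper pairs and deposited raw featureCounts counts for the 24616 Ensembl70 genes. Tables of the whole series with 96 count columns without sample names were not used. Genotype, time-point and cow came from the labels.

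Genes of filterByExpr were tested with edgeR 4.0.16 (TMM, quasi-likelihood, robust, Benjamini-Hochberg, threshold 0.05) under R 4.3.3. CPM uses TMM-scaled totals without gene length, so levels are not compared between genes. Alternatives were edgeR's exact test under a common dispersion, the study's dispersion method, DESeq2 1.42.0, limma-voom 3.58.1, RLE factors, no gene filter, no robust estimation, 48 muscle libraries in one fit and each cow left out. Interactions over 48 libraries were also fitted with each cow as a block. Same-numbered libraries were taken to come from the same animal. Residual correlations were above 0.1 in 42 of 48 pairs (median 0.258), which does not by itself identify the animals. Scripts were tested on simulated data.

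Named genes are the 12 with the smallest p in each direction among those with a symbol, those without overlap, those the study's text names for muscle at LP, up to 3 members with the smallest p and the most abundant member of each list, and the 3 with the smallest p of each interaction. Further genes were named after their values were seen. Members and lists were chosen with earlier results of these data known. 1 gene of the rule is not reported here, and not every gene it allows is described. Symbols came from the study's supplementary lists, and no positions are given.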

Additional observations from a re-analysis of the deposited data

Results flagged for a closer look

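Single cows lay far from the others of their genotype, by Dixon's test at the 95% level, in 20 of 182 groups of 8 cows (91 genes in 2 genotypes). Chance flags about 1 in 20 groups, and genes that share a cow or a pathway are not independent. Fert+ cow 3445 was the high cow for SOCS3 (13.3 CPM, next 1.94), CCL2 (56.5 CPM, next 8.48), CXCL3 (34.0 CPM, next 2.93) and HSPA6 (31.1 CPM, next 1.73). Fert+ cow 430 was low for PDK4 (159 CPM, next 726) and for MYH7 entry ENSBTAG00000009703 (9112 CPM, next 15888), and high for MYH4 (34.6 CPM, next 13.9). Fert- cow 419, the library with the unusual counts, was high for MYH4 (576 CPM, next 13.6) and low for CMSS1 (2.67 CPM, next 4.93). Fert+ cow 756 was low for CLDN5 (16.2 CPM, next 25.8) and BOLA-DQA1 (0.939 CPM, next 13.9), and Fert- cow 982 was high for NR4A1 (413 CPM, next 179) and at 0 for BOLA-DQA2 (next 2.35 CPM). The remaining values were ECHDC2 in Fert+ cow 33 (40.7 CPM, next 26.3), TIEG1 in Fert+ cow 3397 (149 CPM, next 353), DDX5 in Fert+ cow 3847 (195 CPM, next 113), IFI27 in Fert- cow 164 (9.70 CPM, next 4.60), B2M in Fert- cow 164 (670 CPM, next 560), HSPB1 in Fert- cow 426 (428 CPM, next 285) and VWF in Fert- cow 996 (52.4 CPM, next 73.4).

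The genotype difference of RNF144B differed between time-points, with a log2 fold change at LP that was 1.36 lower than at EL (difference -1.36, adjusted p = 0.0356 by the quasi-likelihood interaction term).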

How the results depend on the processing

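The count of 0 genes at LP stood at 0 with limma-voom, RLE factors, no gene filter, no robust estimation and 48 libraries in one fit, and was 27 with DESeq2 and 214 with the exact test under one common dispersion. With 1 cow left out it was 0 to 4, and SOX17 was called in both fits that called any gene. Without cow 3397 the calls were SOX17, CSF3 and PIM3, and without cow 982 SOX17, PINK1, BTG2 and GSTM2. The common dispersion count with 1 cow left out, chosen after seeing the data, was 171 to 245. The difference between LP and EL was called for 1 gene with RLE factors or no gene filter and for 2 (RNF144B and ZBTB40) with cow as a replicate block, and that between LP and ML for 0 in each. MYH4 changed sign with DESeq2 (log2 fold change 0.34) and without cow 419 (-2.81 to 0.35 with 1 cow left out), and CMSS1 with 1 cow left out (-0.16 to 0.022), as did B2M (-0.023 to 0.083). The cause was not tested. Depth limits the genes of a few CPM.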
